A study of Mus musculus with 20 samples.

Results

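The genes described here drive and mark cell division: 39 genes, taken by exact gene symbol from the 46983 genes of a raw count table of mouse pancreatic tumours. They were divided by role into 20 genes of mitosis and the G2 phase, 14 genes of DNA replication and nucleotide supply, and 5 genes of the step from G1 into S phase. The tumours were grown for 2 weeks in the pancreas after injection of a KPC mouse pancreatic cancer cell line into C57BL/6 hosts. RNA with poly(A) tails was sequenced from 4 groups of 5 libraries each: CD45+ leukocytes sorted on magnetic beads from tumours of IL33-/- hosts (sorted IL33KO), the same sort from tumours of wild type hosts (sorted WT), unsorted tumour of IL33-/- hosts (bulk IL33KO) and unsorted tumour of wild type hosts (bulk WT). The knockout was in the host and not in the injected cells as far as the labels say, every host carried the same cell line, and no treatment was named. The labels name 5 hosts per genotype but do not tie a library to a mouse, nor a sorted library to the bulk library of the same tumour, so the p-values below measure the spread between libraries.

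A cell enters division when cyclin D and cyclin E kinases release E2F transcription factors, which switch on the enzymes of DNA synthesis. The MCM helicase, loaded at origins by Cdc6 and Cdt1, then unwinds DNA for polymerases held by the Pcna clamp, while Rrm1, Rrm2, Tyms and Tk1 supply nucleotides. A later wave of genes, under B-Myb and Foxm1, makes the cyclin B kinase, spindle motors and checkpoint proteins that carry a cell through mitosis. In a tumour both the cancer cells and part of the infiltrating leukocytes divide, so bulk RNA and sorted RNA each hold these transcripts from several cell types.

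Between 51.3 and 81.0 M counts fell in genes per library, with a median of 59.5 M, and each of the 39 genes was counted in every library, at no fewer than 144 counts. Levels below are in CPM, counts per M counts of the library (M, mega), scaled by edgeR's trimmed mean of M values. The leukocyte marker Ptprc, which encodes CD45, ranged from 647 to 846 CPM in sorted IL33KO, 594 to 878 in sorted WT, 40.0 to 112 in bulk IL33KO and 54.9 to 87.2 in bulk WT. The sorted libraries were not free of epithelium: the duct and tumour keratin Krt19 ranged from 345 to 540 CPM in sorted IL33KO and 192 to 549 CPM in sorted WT, against 1239 to 1580 CPM in bulk IL33KO and 1106 to 1898 CPM in bulk WT. Il33 itself was counted in every library. It ranged from 14.2 to 25.3 CPM in the sorted libraries labelled IL33KO and from 5.71 to 20.7 CPM in sorted WT, and from 38.0 to 56.2 CPM in the bulk libraries labelled IL33KO and 54.0 to 66.9 CPM in bulk WT. Counts per gene do not show which exons were read, the labels do not describe the deletion, and the injected cells are not labelled as knockout. Il33 therefore does not check the genotype labels, and IL33KO below means a library or host labelled so. Sorted IL33KO 3, sorted WT 3 and bulk WT 5 stood apart from their groups, with 36, 37 and 36 of the 39 genes above the mean of the other 4 libraries of the group, and counts of calls, and values that moved most without them, are given with and without them. The pancreatic acinar enzyme Cpa1 had a median of 282 CPM in sorted IL33KO and 324 CPM in sorted WT, against 1.56 in bulk IL33KO and 1.11 in bulk WT. Its highest value was 5925 CPM in sorted IL33KO and 831 CPM in bulk WT. Sorted and bulk libraries thus differed in acinar RNA as well, and its part in the values below was not tested.

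The start regions of 30 of the 39 genes were in a RefSeq promoter table of build GRCm38.p6, each window running from 250 bases before to 50 bases after a gene's start, 300 bases in all (Mcm7 had 2 windows). Each window was searched on both strands for an E2F motif (TTTGGCGC, TTTCCCGC, TTTGCCGC or TTTCGCGC), for the cell cycle genes homology region, written CHR, which B-Myb and its partners contact (TTTGAA or TTCGAA), and for the CCAAT box. Of 32841 windows of that length in the table, 2.27% held an E2F motif, 19.2% a CHR motif and 37.4% a CCAAT box. Among the 15 mitosis genes with a window, 1 held an E2F motif (Cdk1), 12 a CHR motif and 14 a CCAAT box. Among the 12 replication genes, 6 held an E2F motif (Mcm3, Mcm5, Mcm6, Mcm7, Cdc6 and Cdt1), 2 a CHR motif (Mcm2 and Mcm7) and 8 a CCAAT box. Of the 3 genes of the G1 to S step with a window (E2f1, E2f8 and Ccne1), 0 held an E2F motif, 1 a CHR motif and 1 a CCAAT box. Motifs of different kinds overlapped each other in 1 gene, Mcm7. Foxm1, Mcm4, Ccna2, Gins2, Ccnd1, Aurkb, Ccne2, Tpx2 and Kif20a had no entry. A match describes the letters of a window and is not a measured binding site.

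The windows of 6 genes are printed to show how the classes differ in letters; they are the 3 mitosis and the 3 replication genes with a window whose sorted and bulk libraries differed at the smallest p in WT hosts. Cenpe (chr3:135212313-135212612, plus strand), Cenpf (chr1:189688037-189688336, minus strand) and Mki67 (chr7:135716330-135716629, minus strand) are the mitosis genes. Pcna (chr2:132253131-132253430, minus strand), Mcm5 (chr8:75109259-75109558, plus strand) and Mcm6 (chr1:128359656-128359955, minus strand) are the replication genes. Each is read 5′ to 3′ on its own strand, and capitals mark E2F, CHR and CCAAT motifs on either strand.
Cenpe: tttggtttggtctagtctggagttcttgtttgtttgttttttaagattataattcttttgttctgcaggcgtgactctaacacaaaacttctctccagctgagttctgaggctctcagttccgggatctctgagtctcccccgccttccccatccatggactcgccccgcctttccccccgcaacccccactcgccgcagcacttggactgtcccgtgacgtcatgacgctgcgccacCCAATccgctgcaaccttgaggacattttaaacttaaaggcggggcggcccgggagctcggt
Cenpf: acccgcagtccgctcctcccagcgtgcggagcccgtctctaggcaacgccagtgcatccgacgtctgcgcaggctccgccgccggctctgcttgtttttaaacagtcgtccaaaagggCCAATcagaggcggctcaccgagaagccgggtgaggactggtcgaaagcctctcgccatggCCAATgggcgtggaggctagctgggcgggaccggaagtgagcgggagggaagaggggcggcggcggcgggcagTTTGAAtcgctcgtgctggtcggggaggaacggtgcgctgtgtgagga
Mki67: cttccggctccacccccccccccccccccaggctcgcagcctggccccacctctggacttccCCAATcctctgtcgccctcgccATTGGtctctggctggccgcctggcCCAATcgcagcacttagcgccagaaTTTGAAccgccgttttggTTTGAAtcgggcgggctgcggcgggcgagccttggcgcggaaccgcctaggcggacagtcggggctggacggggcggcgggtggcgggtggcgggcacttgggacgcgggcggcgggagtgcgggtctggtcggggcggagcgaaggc
Pcna: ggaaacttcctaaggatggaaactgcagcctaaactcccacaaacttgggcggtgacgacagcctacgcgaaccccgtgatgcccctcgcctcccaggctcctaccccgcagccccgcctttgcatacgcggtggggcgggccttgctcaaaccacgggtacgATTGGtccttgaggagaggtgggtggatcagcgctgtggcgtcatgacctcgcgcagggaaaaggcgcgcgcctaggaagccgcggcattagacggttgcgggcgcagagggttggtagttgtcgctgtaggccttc
Mcm5: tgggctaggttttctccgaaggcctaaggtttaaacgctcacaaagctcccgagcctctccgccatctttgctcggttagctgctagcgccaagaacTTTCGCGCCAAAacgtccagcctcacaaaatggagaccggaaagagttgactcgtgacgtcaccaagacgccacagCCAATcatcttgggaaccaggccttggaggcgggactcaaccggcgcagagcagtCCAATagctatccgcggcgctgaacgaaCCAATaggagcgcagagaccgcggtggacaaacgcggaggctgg
Mcm6: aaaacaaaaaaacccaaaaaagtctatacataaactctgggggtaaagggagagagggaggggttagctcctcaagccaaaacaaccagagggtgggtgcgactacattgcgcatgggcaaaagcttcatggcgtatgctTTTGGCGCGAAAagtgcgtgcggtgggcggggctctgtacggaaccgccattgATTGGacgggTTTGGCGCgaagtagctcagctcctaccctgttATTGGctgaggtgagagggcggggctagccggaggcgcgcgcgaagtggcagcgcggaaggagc
Mki67 held 2 CHR motifs and 3 CCAAT boxes, Cenpf 1 CHR motif and 2 CCAAT boxes, and Cenpe 1 CCAAT box alone. Mcm6 held 3 E2F motifs and Mcm5 held 2, counting each strand, with no CHR motif in either, and Pcna held 1 CCAAT box alone.

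Levels per kilobase of exon placed Pcna, the polymerase clamp, first among the 39 genes in sorted cells, at a mean of 79.4 CPM per kb in sorted IL33KO and 84.2 in sorted WT. In bulk tumour Ccnd1, which encodes cyclin D1, came first, at 92.3 CPM per kb in bulk IL33KO and 92.0 in bulk WT, ahead of Pcna at 69.9 and 62.9. Ccnd1 was at 30.5 CPM per kb in sorted IL33KO and 29.5 in sorted WT, below Mcm3, a helicase subunit, at 32.6 and 33.7, and above Mcm6 at 27.0 in each. The lowest genes were Cenpf, a kinetochore protein, in sorted cells (0.97 CPM per kb in sorted IL33KO and 0.84 in sorted WT) and Ccne2, cyclin E2, in bulk (1.82 in bulk IL33KO and 1.48 in bulk WT). Mki67, the antigen of the Ki-67 stain, lay in the middle of the order, at 11.4 CPM per kb in sorted IL33KO, 10.1 in sorted WT, 14.3 in bulk IL33KO and 14.5 in bulk WT.

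Genes of mitosis were lower in sorted leukocytes than in bulk tumour. In IL33KO hosts 15 of 20 fell and 0 rose at an adjusted p under 0.05 by edgeR's quasi-likelihood test, with a median log2 fold change over the 20 genes of -0.67. In WT hosts 10 of 20 fell and 0 rose, with a median of -0.47. Across all 18145 genes tested, 31.7% were called lower and 31.3% higher in IL33KO hosts, and 34.3% lower and 33.7% higher in WT hosts, with medians of 0.02 and -0.00. The log2 fold change was below 0 for 20 of 20 genes in IL33KO hosts and for 18 of 20 in WT hosts, the exceptions being Birc5 (0.13) and Aurkb (0.09), which did not pass the test there. The 9 genes called lower in both hosts were Ccnb1, Ccna2, Cenpe, Cenpf, Kif11, Kif20a, Tpx2, Cdc20 and Foxm1, 9 of the 15 calls in IL33KO hosts and 9 of the 10 in WT hosts. In bulk samples fewer dividing cells and less RNA per dividing cell cannot be told apart. Only the sorted cells went through the bead sort. Its part in any sorted against bulk value, here and below, cannot be told apart from that of cell type.

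Cenpf, a kinetochore protein of late G2 and mitosis, had 13.1, 13.9, 18.7, 13.1 and 16.2 CPM in sorted IL33KO libraries 1 to 5, against 46.9, 35.0, 36.2, 35.9 and 37.0 in bulk IL33KO. It had 13.2, 12.8, 14.2, 11.7 and 12.8 CPM in sorted WT, against 35.4, 39.6, 27.4, 31.0 and 35.4 in bulk WT. In both hosts every sorted library lay below every bulk library. The log2 fold change was -1.32 ± 0.12 (SE) in IL33KO hosts, 2.50-fold lower in sorted cells (edgeR adjusted p = 2.71e-08), and -1.37 ± 0.12 in WT hosts, 2.58-fold lower (adjusted p = 1.08e-08). Cenpe, the kinetochore motor that aligns chromosomes, followed the same order, with 18.3, 19.1, 18.2, 20.8 and 24.5 CPM in sorted IL33KO against 53.6, 42.1, 41.5, 43.0 and 47.1 in bulk IL33KO. In WT hosts Cenpe had 17.98, 17.04, 15.3, 19.0 and 17.1 CPM in sorted cells against 42.6, 49.2, 34.3, 38.2 and 45.7 in bulk. The groups did not overlap in either host, and the log2 fold changes were -1.15 ± 0.11 in IL33KO hosts and -1.27 ± 0.11 in WT hosts (edgeR adjusted p = 5.76e-08 and 1.02e-08).

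Foxm1, the transcription factor of the mitotic wave, had 20.7, 20.5, 34.7, 21.4 and 28.1 CPM in sorted IL33KO against 64.1, 48.9, 49.5, 49.3 and 50.9 in bulk IL33KO. In WT hosts it had 22.2, 20.6, 31.8, 22.4 and 23.4 CPM in sorted cells against 46.4, 40.3, 40.4, 43.5 and 56.7 in bulk. No sorted library reached a bulk library, and library 3 was the highest sorted library in each host. Foxm1 was 2.06-fold lower in sorted cells of IL33KO hosts and 1.87-fold lower in those of WT hosts (edgeR adjusted p = 1.01e-05 and 3.85e-05). Cdc20, the activator of the anaphase-promoting complex, fell by 0.83 on the log2 scale in IL33KO hosts, with 26.6 to 44.4 CPM in sorted libraries against 53.8 to 70.0 in bulk, and by 0.48 in WT hosts, where 30.6 to 53.5 CPM in sorted libraries overlapped 44.4 to 66.3 in bulk (edgeR adjusted p = 0.000115 and 0.00885). Kif20a, a kinesin of cytokinesis, fell by 0.65 in IL33KO hosts and by 0.78 in WT hosts, and Tpx2, a spindle assembly factor, by 0.72 and 0.58 (edgeR adjusted p = 0.00203, 0.000349, 0.00053 and 0.00266). Across the WT hosts, Mki67, Cenpe, Cenpf, Kif20a, Tpx2 and Foxm1 had every sorted library below every bulk library, against 24.3% of all genes tested. In IL33KO hosts this held for Cenpe, Cenpf, Cdc20 and Foxm1, against 25% of all genes.

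Of the cyclin B kinase genes, Ccnb2, cyclin B2, passed in neither host, at log2 -0.32 in IL33KO hosts and -0.08 in WT hosts (edgeR adjusted p = 0.0943 and 0.694). Ccnb1, cyclin B1, fell by 0.74 on the log2 scale in IL33KO hosts and by 0.58 in WT hosts, and Ccna2, cyclin A2, by 0.82 and 0.55 (edgeR adjusted p = 0.00738, 0.0276, 0.00304 and 0.0316). Cdk1, the kinase itself, had 36.5, 44.8, 72.3, 43.2 and 49.4 CPM in sorted IL33KO against 71.3, 70.8, 95.7, 66.1 and 101 in bulk IL33KO, a log2 fold change of -0.69 (edgeR adjusted p = 0.00619). In WT hosts Cdk1 had 45.8 to 65.8 CPM in sorted cells and 50.01 to 101 in bulk, and did not pass the test. Ube2c, the ubiquitin-conjugating enzyme of the anaphase-promoting complex, fell by 0.97 and Aurka, a centrosome kinase, by 0.69 in IL33KO hosts (edgeR adjusted p = 0.00151 and 0.0113), and neither passed the test in WT hosts. Plk1, Bub1 and Birc5 were called lower in IL33KO hosts as well (log2 -0.61, -0.50 and -0.51). Without sorted WT 3 the count in WT hosts was 15 of 20, and over all single libraries left out it ran from 8 to 15 in WT hosts and from 11 to 18 in IL33KO hosts. The calls of Ccnb1 and Ccna2 in WT hosts were each lost on leaving out bulk WT 2, bulk WT 5, or sorted WT 1, 2, 4 or 5 (log2 -0.46 to -0.55). In IL33KO hosts the calls of Kif11, Plk1, Bub1 and Birc5 were each lost on leaving out sorted IL33KO 1, 2 or 4, at log2 -0.44 to -0.55, and on leaving out some other libraries, bulk IL33KO 1, 3 and 5 and sorted IL33KO 5 among them; Birc5 was lost also without bulk WT 3 or sorted WT 2, 4 or 5 (log2 -0.50 to -0.51, adjusted p = 0.0515 to 0.0527). Sorted IL33KO 3, sorted WT 3 and bulk WT 5 were then all left out, an alternative chosen after seeing the data. With that, 20 of 20 mitosis genes were called lower in IL33KO hosts and 14 of 20 in WT hosts. Of all genes, 6003 and 6391 were called lower in these hosts, against 5747 and 6230 with all 20 libraries.

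Mki67 went against most of its class in the libraries that stood apart: on the log2 scale it was -0.12 from the mean of the other 4 libraries in sorted IL33KO 3, -0.85 in sorted WT 3 and -0.05 in bulk WT 5. It had 118, 119.9, 107, 102 and 129 CPM in sorted IL33KO against 157, 142, 126, 139 and 154 in bulk IL33KO. In WT hosts it had 124, 116, 61.7, 109 and 98.3 CPM in sorted cells against 144, 179, 135, 128 and 141 in bulk. The lowest value, in sorted WT 3, came from the library in which 37 of the 39 genes were at their group's highest. Mki67 fell by 0.50 on the log2 scale in WT hosts (edgeR adjusted p = 0.00491) and was called there under each of 29 alternatives run. In IL33KO hosts the log2 fold change of -0.29 did not pass the test (edgeR adjusted p = 0.083). It passed under 5 of 29 alternatives. Among them were limma voom, scaling by library size alone and a fit of only the 10 IL33KO-host libraries. Another left out sorted WT 3 (edgeR adjusted p = 0.0145), which enters the shared estimate of spread. Mki67, Cenpe and Cenpf are long by the exon length of the gene, at 10.1, 8.62 and 15.4 kb. Rrm1 (11.01 kb) and Top2a (9.01 kb) are long too, and neither passed the test in either host. Top2a had log2 fold changes of -0.37 in IL33KO hosts and -0.33 in WT hosts. Across other genes of 6 to 16 kb of exon the median log2 fold change was -0.08 in IL33KO hosts and -0.27 in WT hosts, and across the shortest 25% of genes it was 0.36 and 0.44; the part of transcript length in the results was not tested.

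**Figure D1:**
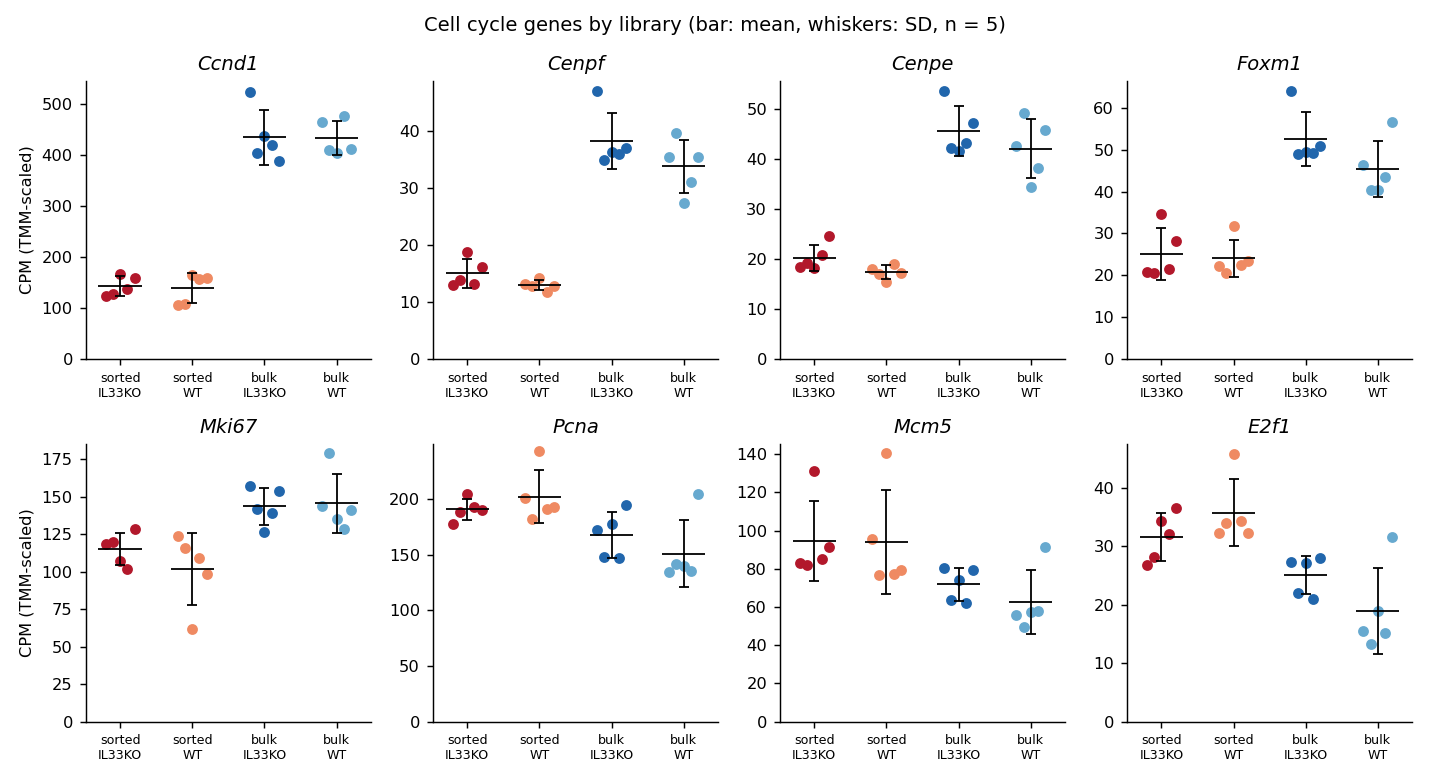
CPM of 8 genes in each library, with 5 points per group in the order sorted IL33KO, sorted WT, bulk IL33KO and bulk WT, a bar at the mean and whiskers of 1 SD. Ccnd1, Cenpf, Cenpe and Foxm1 lie lower in all sorted libraries than in any bulk library, while Pcna, Mcm5 and E2f1 lie as high or higher in sorted cells and overlap bulk values in at least 1 host.

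DNA replication genes did not show this difference as a class. In IL33KO hosts 3 of 14 fell (Tk1, Tyms and Mcm7) and 0 rose, and in WT hosts 0 fell and 3 rose (Mcm5, Pcna and Mcm6), against 31.7% and 33.7% of all genes called in those directions, so neither share was above the background. The class medians of log2 fold change were -0.06 in IL33KO hosts and 0.03 in WT hosts. Pcna had 178, 188, 205, 193 and 189.6 CPM in sorted IL33KO against 172, 147, 178, 147 and 195 in bulk IL33KO, and 201, 182, 243, 191 and 193 CPM in sorted WT against 134, 141, 139.9, 135 and 204 in bulk WT. All sorted WT libraries lay above bulk WT 1 to 4, and bulk WT 5 lay within their range. Pcna was 1.35-fold higher in sorted cells of WT hosts (edgeR adjusted p = 0.00373), with a log2 fold change of 0.21 in IL33KO hosts that did not pass the test (adjusted p = 0.136).

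Mcm5, a helicase subunit, had 82.8, 81.8, 131, 84.9 and 91.2 CPM in sorted IL33KO against 80.3, 63.6, 74.2, 62.3 and 79.3 in bulk IL33KO, groups that did not overlap. In WT hosts it had 95.6, 76.9, 141, 77.2 and 79.4 CPM in sorted cells against 55.9, 49.4, 57.6, 58.1 and 91.6 in bulk, where bulk WT 5 lay among the sorted libraries. The log2 fold change was 0.60 ± 0.19 in WT hosts (edgeR adjusted p = 0.00908) and 0.42 in IL33KO hosts (adjusted p = 0.0618). Mcm6, a helicase subunit too, had a log2 fold change of 0.34 ± 0.14 in WT hosts (adjusted p = 0.0319) and 0.21 in IL33KO hosts (adjusted p = 0.18). Its call in WT hosts was lost on leaving out sorted WT 3 (0.21, adjusted p = 0.129), sorted WT 1 (0.30), or bulk WT 1, 3 or 4 (0.30 to 0.32). With scaling by library size alone, which moves the median of all genes in WT hosts by -0.51, Pcna and Mcm6 turned to -0.08 and -0.18 and Mcm5 to 0.07, and 0 of the 3 were called higher. In WT hosts 0 replication genes, and in IL33KO hosts Mcm5 alone, had every sorted library above every bulk library, against 26.1% and 23.7% of all genes. Gins2, of the helicase complex, and Tk1 had every sorted library below every bulk library in IL33KO hosts, where 25% of all genes did.

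Of the 4 nucleotide enzymes, Tk1 and Tyms fell in IL33KO hosts, while Rrm1 (log2 0.02, edgeR adjusted p = 0.924) and Rrm2 (-0.32, adjusted p = 0.195) did not pass the test. Tk1, thymidine kinase, had 34.7, 32.1, 44.4, 34.2 and 38.9 CPM in sorted IL33KO against 53.8, 47.8, 67.4, 47.1 and 69.0 in bulk IL33KO, without overlap. Tyms, thymidylate synthase, had 26.3, 26.7, 38.4, 26.4 and 30.0 CPM in sorted IL33KO against 38.8, 37.7, 47.0, 34.0 and 48.3 in bulk IL33KO, where sorted IL33KO 3 overlapped bulk values. Tk1 fell by 0.61 and Tyms by 0.45 on the log2 scale (edgeR adjusted p = 0.00773 and 0.0158). Mcm7, a helicase subunit, fell by 0.34 (adjusted p = 0.0307), a call lost on leaving out bulk IL33KO 1 or sorted IL33KO 1, 2 or 4 (-0.29 to -0.30). In WT hosts Tk1 had 31.7 to 43.9 CPM in sorted cells and 31.0 to 72.8 in bulk, and none of Tk1, Tyms and Mcm7 passed the test. The counts moved with single libraries: in WT hosts 5 of 14 were called higher without bulk WT 5, with Cdt1 and Mcm3 joining, while 2 were called lower without sorted WT 3 (Mcm7 and Tyms) and 1 without bulk WT 2 (Tk1). In IL33KO hosts Mcm5 was called higher without sorted WT 3 or without bulk WT 5. With sorted IL33KO 3, sorted WT 3 and bulk WT 5 left out together, 4 were called higher and 2 lower in WT hosts. In IL33KO hosts 1 was then called higher and 6 lower. Of all genes, 6613 were called higher and 6391 lower in WT hosts at that setting, and 5947 and 6003 in IL33KO hosts.

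The 5 genes of the G1 to S step held the widest range. Ccnd1, the cyclin D1 that answers growth factor signals, had 124, 128, 167, 138 and 159.9 CPM in sorted IL33KO against 524, 403, 438, 419.7 and 388 in bulk IL33KO. In WT hosts it had 105, 108, 165, 157 and 158 CPM in sorted cells against 464, 409.5, 404, 476 and 413 in bulk. The lowest bulk library was above the highest sorted library in each host, and Ccnd1 was 2.98-fold lower in sorted cells of IL33KO hosts and 3.09-fold lower in those of WT hosts (edgeR adjusted p = 1.13e-08 and 4.6e-09). E2f1, the activating transcription factor of S phase entry, had 26.7, 28.2, 34.3, 32.1 and 36.6 CPM in sorted IL33KO against 27.3, 22.0, 27.1, 20.9 and 28.0 in bulk IL33KO, which overlapped. In WT hosts it had 32.3, 34.0, 45.8, 34.2 and 32.2 CPM in sorted cells against 15.5, 13.2, 18.9, 15.1 and 31.5 in bulk, without overlap, although bulk WT 5 came close to the lowest sorted library. E2f1 was 1.91-fold higher in sorted cells of WT hosts (log2 0.93 ± 0.19, edgeR adjusted p = 0.000261), while the log2 fold change of 0.36 in IL33KO hosts did not pass the test (adjusted p = 0.107) and passed it without bulk WT 5 (adjusted p = 0.0195). Under scaling by library size alone E2f1 in WT hosts stayed above 0 at 0.41 and lost its call (adjusted p = 0.0617). Ccne1, cyclin E1, was 1.85-fold higher in sorted cells of WT hosts (adjusted p = 0.0119), a call lost without sorted WT 3 (log2 0.61, adjusted p = 0.0569). In this class 0 genes rose and 1 of 5 fell in IL33KO hosts, against 31.3% and 31.7% of all genes, and 2 rose and 1 fell in WT hosts, against 33.7% and 34.3%, counts near or below those shares; Ccne2 and E2f8, a repressor of the E2F family, passed in neither.

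**Figure D2:**
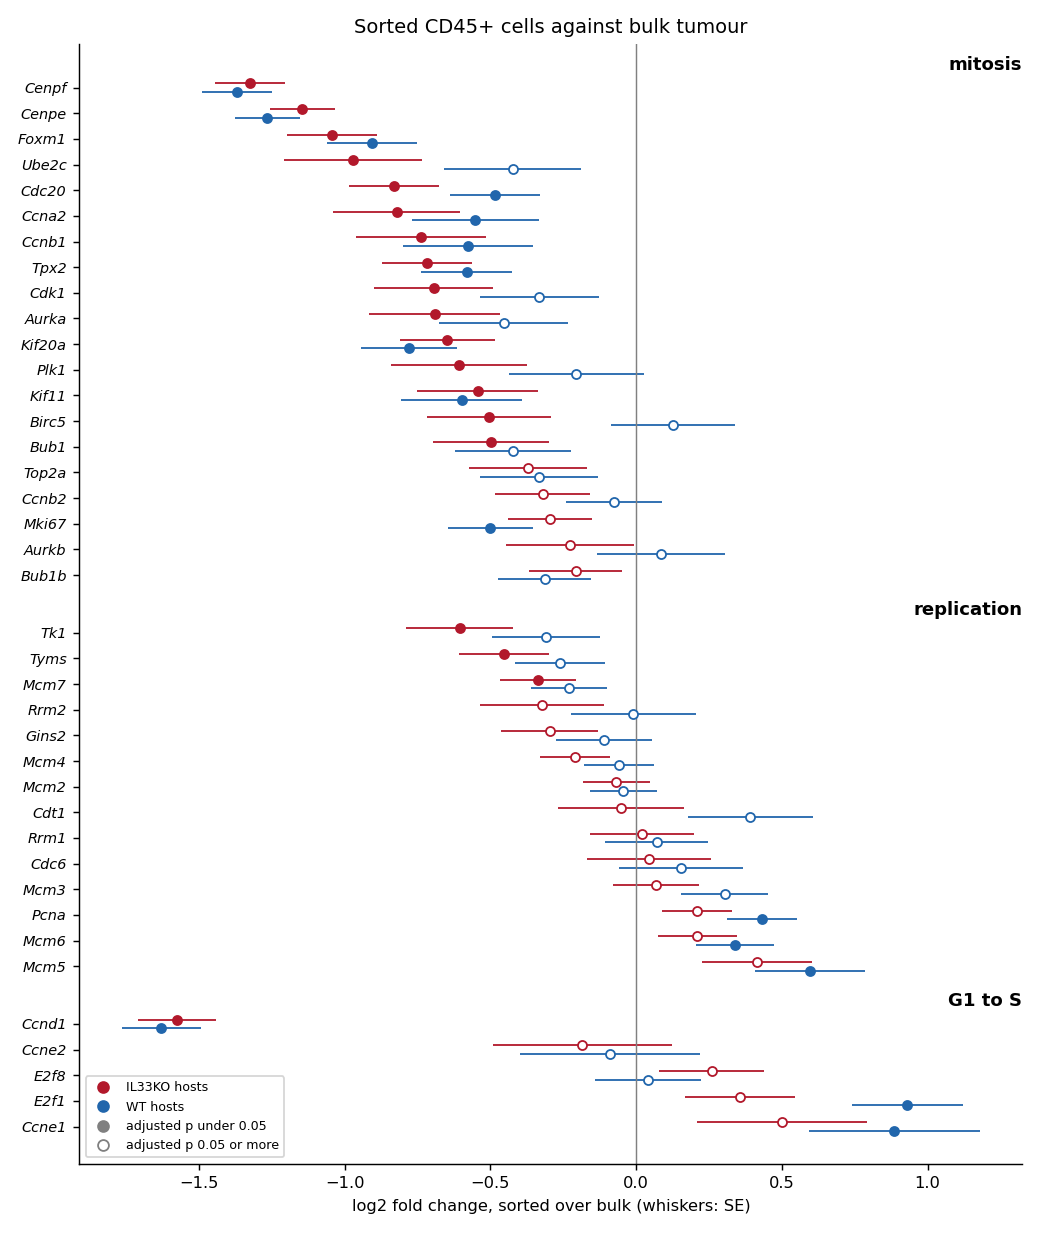
Log2 fold change of sorted CD45+ cells over bulk tumour for each of the 39 genes, by class, in IL33KO hosts (red) and WT hosts (blue), with whiskers of 1 SE and filled points where the adjusted p was under 0.05. Mitosis genes lie mostly left of 0, with medians of -0.67 and -0.47, replication genes on either side of 0, and Ccnd1 furthest left at -1.57 and -1.63.

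Replication and mitosis genes were then set against each other within each library, a difference that no scaling of libraries can move. The mean log2 CPM of the 14 replication genes minus that of the 20 mitosis genes was 0.93, 0.80, 0.58, 0.92 and 0.76 in sorted IL33KO and 0.88, 0.76, 0.82, 0.72 and 0.80 in sorted WT. It was 0.22, 0.22, 0.24, 0.26 and 0.16 in bulk IL33KO and 0.16, 0.03, 0.27, 0.23 and 0.30 in bulk WT. Every sorted library lay above every bulk library, and the smallest sorted value belonged to sorted IL33KO 3. The group means were 0.80 ± 0.14 in sorted IL33KO, 0.80 ± 0.06 in sorted WT, 0.22 ± 0.04 in bulk IL33KO and 0.20 ± 0.11 in bulk WT (SD, n = 5 each). Sorted minus bulk came to 0.58 in IL33KO hosts and 0.60 in WT hosts, and ran from 0.55 to 0.64 and from 0.56 to 0.63 with single libraries left out. This difference is a description of the 34 genes and carries no test. The mitosis class alone had mean log2 CPM of 4.88 to 5.64 in sorted IL33KO and 4.98 to 5.58 in sorted WT, against 5.62 to 5.98 in bulk IL33KO and 5.50 to 6.00 in bulk WT. The replication class alone had 5.81 to 6.22 in sorted IL33KO and 5.74 to 6.40 in sorted WT. Its bulk values were 5.88 to 6.19 in bulk IL33KO and 5.65 to 6.30 in bulk WT. Sorted and bulk ranges overlapped in both classes and both hosts. In the mitosis class sorted IL33KO 3 (5.64) lay above bulk IL33KO 4 (5.62). Sorted WT 3 (5.58) lay above bulk WT 1, 3 and 4 (5.50 to 5.55). Leukocyte markers averaged 9.61 to 9.97 on the log2 CPM scale in sorted IL33KO and 9.62 to 10.06 in sorted WT, against 6.22 to 7.24 in bulk IL33KO and 5.90 to 7.16 in bulk WT. Summed epithelial markers ran from 1891 to 2880 CPM in sorted IL33KO and 1091 to 2733 in sorted WT, against 6776 to 9680 in bulk IL33KO and 8023 to 10192 in bulk WT. The part of that change of cell types in the gene classes was not tested.

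**Figure D3:**
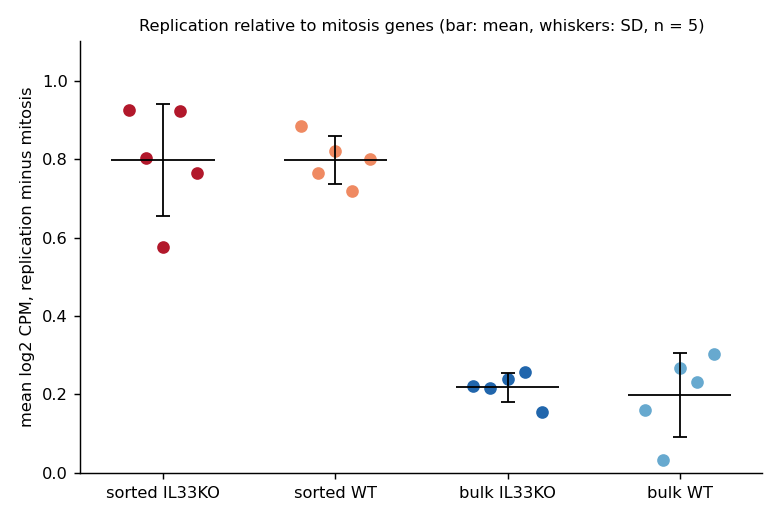
Mean log2 CPM of 14 replication genes minus that of 20 mitosis genes in each library, with a bar at the group mean and whiskers of 1 SD (n = 5). The sorted libraries lie between 0.58 and 0.93 and the bulk libraries between 0.03 and 0.30.

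Other genes of the same steps, taken from lists of known roles that exclude the 39, were counted in the same fits. Of 30 other mitosis genes 21 fell and 1 rose in sorted cells of IL33KO hosts, and 17 fell and 1 rose in those of WT hosts, with medians of log2 fold change of -0.59 and -0.43. Among those with the smallest p, Ect2, an activator of the contractile ring, fell by 1.57 in IL33KO hosts and by 1.77 in WT hosts, Anln by 1.49 and 1.60, and Kif23 by 1.23 and 1.43. Racgap1, a partner of Ect2 and Kif23 chosen after its values were seen, fell less, by 0.53 and 0.39. Of 30 other replication genes 10 fell and 0 rose in IL33KO hosts, with a median of -0.26, and 8 fell and 5 rose in WT hosts, with a median of -0.05; these counts lie near or below the shares of all genes called, 31.7% lower and 31.3% higher in IL33KO hosts and 34.3% lower and 33.7% higher in WT hosts. Rfc4, a clamp loader subunit, fell by 0.44 in each host, whereas Rpa2, of the single-strand binding complex, had a log2 fold change of 0.67 in WT hosts. In IL33KO hosts the highest log2 fold change among these 30 genes was 0.37, and Rpa2 was not called higher there. Of 15 other genes of the G1 to S step 7 fell and 5 rose in IL33KO hosts and 7 fell and 3 rose in WT hosts. Rb1, the retinoblastoma brake on E2F, rose by 1.74 and 1.55 on the log2 scale, and Cdk6, a partner of cyclin D, fell by 0.85 and 1.16.

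Of 7 inhibitors of cyclin-dependent kinases 2 rose and 3 fell in IL33KO hosts and 2 rose and 2 fell in WT hosts, counts close to the shares of all genes called in each direction (31.3% and 31.7%, and 33.7% and 34.3%). Cdkn1a, the p21 inhibitor, averaged 340 ± 59.4 CPM in sorted IL33KO and 414 ± 66.7 in sorted WT, against 44.5 ± 3.58 in bulk IL33KO and 44.4 ± 19.2 in bulk WT (SD, n = 5 each). Its log2 fold change was 2.96 in IL33KO hosts and 3.23 in WT hosts. Cdkn2d, the p19 inhibitor of cyclin D kinases, rose by 1.13 and 1.72, while Cdkn2a and Cdkn2b, inhibitors of those kinases too, fell by 2.22 and 2.31 in IL33KO hosts and by 1.86 and 2.15 in WT hosts.

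The question of host IL33 was asked within each compartment. In sorted cells 0 of the 39 genes differed between IL33KO-labelled and WT hosts by edgeR's quasi-likelihood test, where 0.00598% of 16731 genes were called higher and 0.00598% lower (1 gene each way, and 2156 genes at an unadjusted p under 0.05). In 0 of the 39 genes did the sorted IL33KO and sorted WT libraries not overlap, against 0.98% of all genes with IL33KO above and 2.72% with IL33KO below. The log2 fold change was above 0 for 25 genes and below 0 for 14, with a median of 0.03. Over all genes the median was 0.02, with 8990 of 16731 above 0. Cenpe had the smallest p among the 39, with 20.2 ± 2.64 CPM in sorted IL33KO and 17.3 ± 1.36 CPM in sorted WT (SD, n = 5 each). Its log2 fold change was 0.24 (edgeR adjusted p = 0.387). The values of 18.2 to 24.5 in sorted IL33KO and 15.3 to 19.0 in sorted WT overlapped. E2f8 had 19.99, 22.0, 35.9, 18.6 and 19.8 CPM in sorted IL33KO against 18.3, 18.1, 22.6, 17.2 and 13.3 in sorted WT, a log2 fold change of 0.39 (edgeR adjusted p = 0.433), with sorted IL33KO 3 far above the rest. Cdt1, the licensing factor, had 27.5 to 36.2 CPM in sorted IL33KO and 31.8 to 52.2 in sorted WT, a log2 fold change of -0.22 (adjusted p = 0.523). Mki67 was at 0.19 and Ube2c at -0.21 (adjusted p = 0.693 and 0.694). These values moved with the libraries that stood apart. Without sorted WT 3 the log2 fold change of Mki67 was 0.042, that of Ube2c -0.064 and that of Cdt1 -0.089. Without sorted IL33KO 3 that of E2f8 was 0.18 and that of Ube2c -0.38, with 0 of 39 called in either case. DESeq2 and limma voom called 0 of the 39 too, though over all genes DESeq2 called 172 higher and 394 lower and voom 187 and 213. The sorted groups also differed in cell markers without a call by edgeR. Summed macrophage markers ran from 11337 to 17445 CPM in sorted IL33KO and from 18993 to 21685 in sorted WT. The median log2 fold change was -0.34 over macrophage markers and 0.67 over B cell markers. The part of these cells in the gene values was not tested.

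In bulk tumour 0 of 39 genes were called by edgeR, and 0% of 17258 genes were called higher and 0% lower (1098 at an unadjusted p under 0.05; DESeq2 called 20 higher and 30 lower). The bulk groups overlapped for each of the 39 genes, against 0.435% of all genes with IL33KO wholly above and 0.238% wholly below. The log2 fold changes were above 0 for 36 of 39 genes, the others being Mki67 (-0.04), Bub1b (-0.06) and Ccnd1 (-0.02). The median was 0.18 against 0.01 over all genes, of which 8844 of 17258 lay above 0. The 39 genes move together within a library, so their signs are not separate observations. Bulk IL33KO 1 was the highest of its group for 21 of the 39 genes and bulk IL33KO 5 for 17. Birc5, the survivin subunit of the chromosomal passenger complex, had 55.8, 50.7, 71.2, 44.8 and 83.6 CPM in bulk IL33KO against 34.4, 34.4, 46.4, 34.1 and 71.1 in bulk WT. Bulk WT 5 lay with the IL33KO libraries and bulk IL33KO 4 with the WT libraries, and the log2 fold change of 0.46 ± 0.25 did not pass the test (edgeR adjusted p = 0.724). Rrm2, the inducible ribonucleotide reductase subunit, had 84.0, 65.4, 72.5, 69.4 and 83.5 CPM in bulk IL33KO against 54.2, 55.1, 57.1, 51.9 and 88.9 in bulk WT. All bulk IL33KO libraries lay above bulk WT 1 to 4 and below bulk WT 5, and the log2 fold change was 0.27 (adjusted p = 0.724). E2f1 at 0.39, Ccnb2 at 0.20, Cdc20 at 0.20 and Foxm1 at 0.19 had the same adjusted p. Limma voom with quality weights called Birc5, Cdk1, Rrm2, E2f1 and Ccne1 higher in bulk IL33KO, 5 of 39 genes, against 11.1% of all genes called higher by that tool. With bulk WT 5 left out edgeR still called 0 of 39, but the log2 fold changes were larger: 0.71 for Birc5, 0.66 for E2f1, 0.44 for Rrm2, 0.30 for Cdc20, 0.28 for Foxm1 and 0.25 for Ccnb2 (edgeR adjusted p = 0.101, 0.0792, 0.0793, 0.121, 0.127 and 0.234).

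The bulk IL33KO and bulk WT libraries also differed in markers of other cells without a call: the median log2 fold change over fibroblast markers was 0.94 and over B cell markers 1.30, and their part in the gene values was not tested. Mesothelial markers had a median of 1.91 in this comparison.

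**Figure D4:**
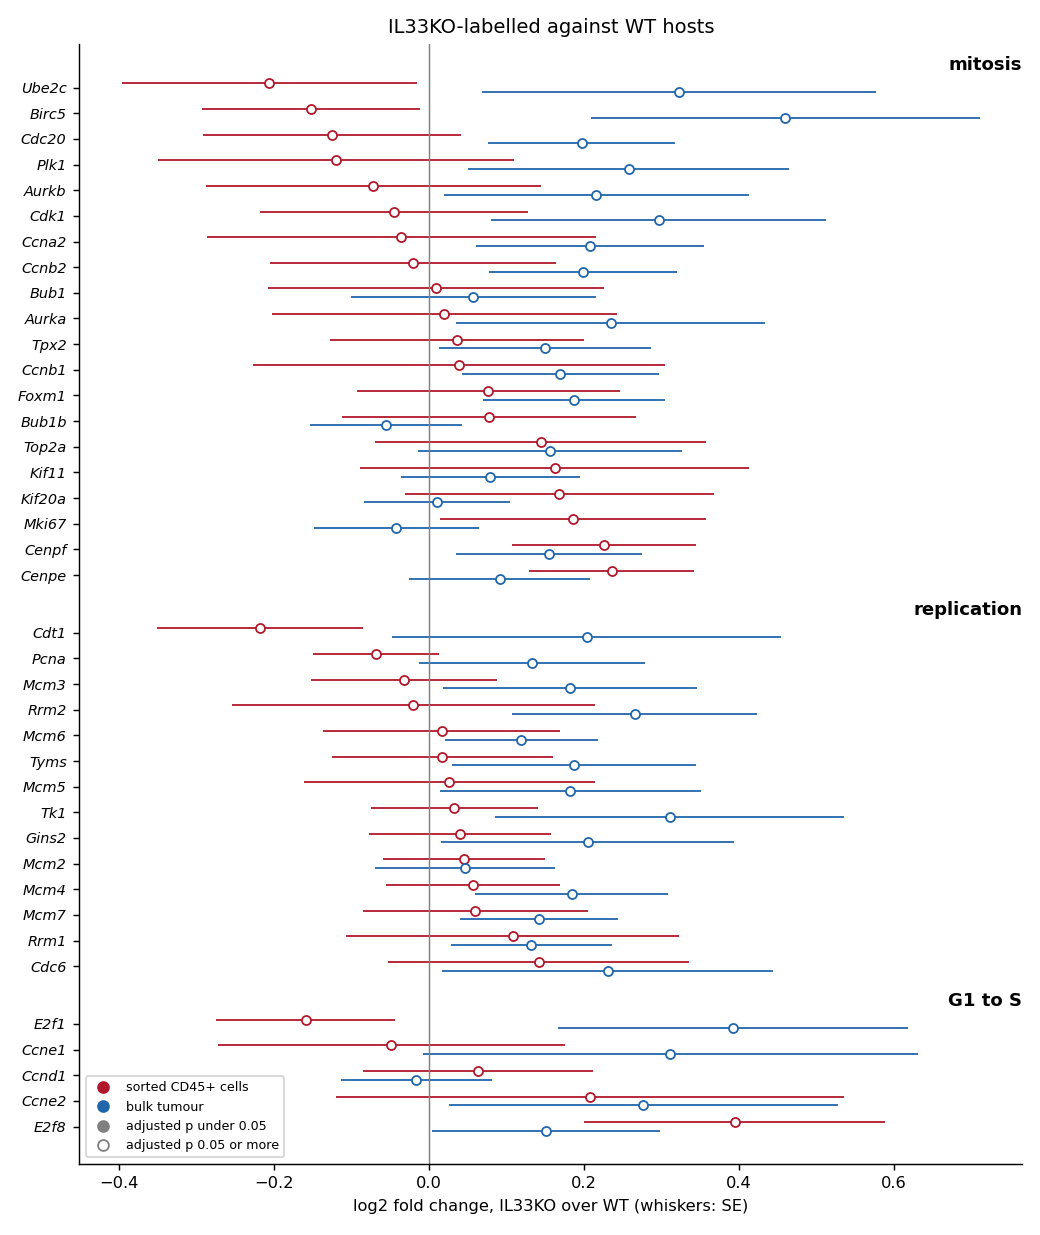
Log2 fold change of IL33KO-labelled over WT hosts for each gene in sorted CD45+ cells (red) and bulk tumour (blue), with whiskers of 1 SE; open points had an adjusted p of 0.05 or more. Each point is open, the sorted values scatter around 0 with a median of 0.03, and the bulk values lie right of 0 for 36 of 39 genes with a median of 0.18.

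The difference between hosts in sorted against bulk was tested directly by the interaction, in which 0 of 39 genes were called and 0% of 18145 genes were called higher and 0% lower (2028 at an unadjusted p under 0.05; DESeq2 called 3 higher and 1 lower). The interaction term was below 0 for 31 of 39 genes, with a median of -0.16. Over all genes the median was -0.01, with 9282 of 18145 below 0. Here too the 39 signs are not separate observations, since the genes move together within a library. E2f1 at -0.57 and Birc5 at -0.63 had the smallest p (edgeR adjusted p = 0.445 for each), with Ube2c at -0.55, Cdt1 at -0.44, Cdc20 at -0.35, Pcna at -0.22, Ccnd1 at 0.05 and Mki67 at 0.21. Without bulk WT 5 the interaction was -0.85 for E2f1, -0.88 for Birc5 and -0.36 for Pcna (edgeR adjusted p = 0.0535, 0.0624 and 0.105), and without sorted WT 3 it was 0.068 for Mki67 and -0.19 for Cdc20, with 0 of 39 called in either case. Limma voom called Birc5, Cdk1 and E2f1 lower, 3 of 39, against 10.3% of all genes called lower by that tool. The calls found in a single host above, such as Ube2c in IL33KO hosts and Pcna in WT hosts, were therefore not shown by edgeR to differ between hosts.

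Within groups the genes moved together across libraries. In sorted WT 3, 37 of 39 genes were above the mean of sorted WT 1, 2, 4 and 5, with a median log2 difference of 0.62; the exceptions were Mki67 at -0.85 and Cenpe at -0.21. In sorted IL33KO 3, 36 of 39 genes were above the mean of the others, again with a median of 0.62, the exceptions being Cdt1 at -0.26, Cenpe at -0.18 and Mki67 at -0.12. In bulk WT 5, 36 of 39 were above, with a median of 0.56. Rrm2 in sorted WT shows the size of such a step, with 51.3, 49.7, 103, 53.9 and 45.1 CPM. Over all genes in sorted WT 3 the median log2 difference was -0.27 in the shortest 25% by exon length and 0.08 to 0.12 in the others, whereas in sorted IL33KO 3 it was -0.01 to -0.04 in each length class. Acinar markers averaged 11.3 on the log2 CPM scale in sorted IL33KO 3, against 5.47 to 8.66 in the others of its group. In bulk WT 5 they averaged 8.70, against -0.52 to 0.17 in the others. Neutrophil markers averaged 9.44 in sorted IL33KO 3 (others 7.61 to 8.15) and germinal centre markers 6.30 in sorted WT 3 (others 4.39 to 4.89). The part of these cells, or of transcript length, in the shifts was not tested.

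**Figure D5:**
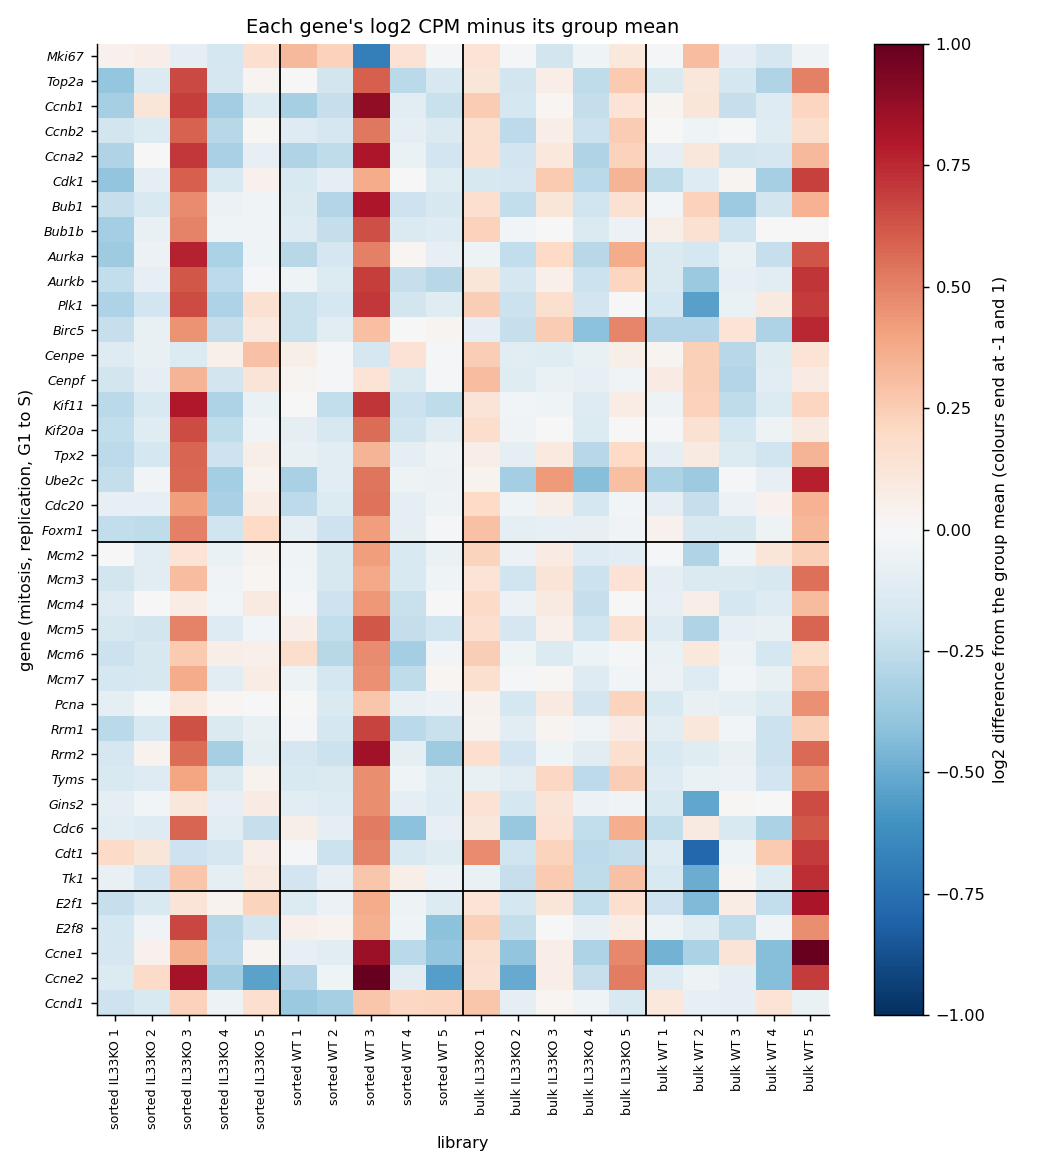
Log2 CPM of each of the 39 genes in each of the 20 libraries minus the mean of its group of 5, red above and blue below, with colours ending at -1 and 1. Columns sorted IL33KO 3, sorted WT 3 and bulk WT 5 are red down most of their length, and Mki67 in sorted WT 3 is blue.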

How the data were processed

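Poly(A) RNA was sequenced from 20 libraries, 5 in each of 4 groups taken from the labels. The authors deposited raw HTSeq counts per gene, which were used as they stand; the submitters' processing notes also name Picard, DESeq and the mouse build mm10, without versions or roles. For the aligner and the strand setting, the sources used here give nothing, so reads of overlapping or antisense genes cannot be told apart. A second deposited table, scaled by DESeq, was not used. The 5 summary lines, 26.1 to 40.5% of reads, name no gene and were left out. Depth was 51.3 to 81.0 M counts per library, so 3 counts correspond to 0.0331 to 0.0677 CPM.

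Counts were fitted with edgeR 4.0.16 in R 4.3.3 (filterByExpr, TMM factors of 0.756 to 1.25, robust quasi-likelihood fit and test, Benjamini-Hochberg adjustment over all genes tested, threshold 0.05). Hosts were compared within a compartment on 10 libraries; sorted against bulk and the interaction came from a fit of all 20. The log2 CPM used a prior count of 2, and exon lengths came from GENCODE M21, which matched 46488 of 46983 genes. DESeq2 1.42.0, limma 3.58.1 (voom with quality weights), other scalings and filters, a replicate block and left-out libraries were alternatives. The steps were tested on simulated counts. All replicate pairs differed beyond counting error.

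The 39 genes and all lists were chosen with earlier results of these data known. Library values are given for the 6 genes with the smallest p and the 3 furthest from their class median in each comparison, plus Mki67 and Ccnd1, and others named were chosen after their values were seen; at most 4 genes with the smallest p per comparison come from each other list.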

Additional observations from a re-analysis of the deposited data

Results flagged for a closer look

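A library was picked out where its gap to the nearest of the other 4, divided by the range of the group, passed Dixon's 95% value of 0.71. Of 88 groups of values tested (18 genes, 3 class means and the replication minus mitosis difference, in 4 groups), 26 passed, where chance gives about 1 in 20; the tests are not independent, since the genes move together within a library. Each was the highest of its group, 13 in sorted WT 3, 7 in bulk WT 5, 4 in sorted IL33KO 3 and 2 in bulk IL33KO 1.

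In sorted IL33KO 3 the G1 to S mean was 4.93 log2 CPM (others 4.30 to 4.47). There E2f8 was at 35.9 CPM (18.6 to 22.0), Ccnb2 at 50.4 (27.6 to 33.8) and Kif20a at 47.8 (25.6 to 29.8).

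In sorted WT 3 the class means were 5.58 log2 CPM for mitosis (others 4.98 to 5.02), 6.40 for replication (5.74 to 5.88) and 4.97 for G1 to S (4.15 to 4.35). Of mitosis genes, Ube2c was at 68.8 CPM (38.0 to 45.8), Ccnb2 at 49.9 (30.9 to 32.7), Cdc20 at 53.5 (30.6 to 35.4) and Foxm1 at 31.8 (20.6 to 23.4). Bub1b was at 58.3 CPM (31.5 to 34.1), Kif20a at 40.8 (24.1 to 26.0) and Tpx2 at 58.5 (42.7 to 44.7). Of the S phase genes, Cdt1 was at 52.2 CPM (31.8 to 36.7), E2f1 at 45.8 (32.2 to 34.2) and Rrm2 at 103 (45.1 to 53.9).

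In bulk IL33KO 1 Cenpf was at 46.9 CPM (35.0 to 37.0) and Foxm1 at 64.1 (48.9 to 50.9).

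In bulk WT 5 the class means were 6.00 log2 CPM for mitosis (others 5.50 to 5.62), 6.30 for replication (5.65 to 5.76) and 4.97 for G1 to S (4.17 to 4.32). E2f8 was at 23.9 CPM (14.5 to 16.9), Ube2c at 107 (48.7 to 61.7), Rrm2 at 88.9 (51.9 to 57.1) and Pcna at 204 (134 to 141).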

How the results depend on the processing

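The 0 calls among the 39 genes between hosts held in both compartments, and in the interaction, under every alternative run except limma voom. Voom called 2 mitosis, 1 replication and 2 G1 to S genes higher in bulk IL33KO, where it called 11.1% of all genes higher. In the interaction it called 2 mitosis and 1 G1 to S genes lower, and 10.3% of all genes. In sorted against bulk of WT hosts it called 1 mitosis gene higher and 5 replication genes higher and 2 lower. In IL33KO hosts it called 2 replication and 2 G1 to S genes higher and 5 replication genes lower. Of all 18145 genes it called 7401 higher and 7053 lower in WT hosts, and 6486 and 6374 in IL33KO hosts. Scaling by library size alone moved the median of all genes in sorted against bulk by -0.51 in WT hosts and -0.43 in IL33KO hosts, with 3647 genes called higher and 9551 lower in WT hosts and 3416 and 9123 in IL33KO hosts, against 6117 and 6230 and 5682 and 5747. With it 18 mitosis, 8 replication and 2 G1 to S genes were lower and 0 replication and 0 G1 to S genes higher in WT hosts, 10 replication and 2 G1 to S genes were lower in IL33KO hosts, and Ccnd1 in bulk IL33KO against bulk WT turned to 0.024. A fit of the 10 IL33KO-host libraries alone called 1 replication and 2 G1 to S genes higher, and 5482 of all genes. Without sorted IL33KO 3, sorted WT 3 and bulk WT 5, chosen after seeing the data, 2 replication genes were lower in WT hosts. In IL33KO hosts 1 replication and 1 G1 to S gene were then higher and 6 replication genes lower. That setting called 6391 of all genes lower in WT hosts, and 5947 higher and 6003 lower in IL33KO hosts. The cause of these changes was not tested.

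The rule for taking the replicate numbers as pairs, every pair's correlation over 0.1, was not met in any comparison, so pairing was not shown; the labels do not settle it. Same-numbered libraries deviated together at correlations of -0.19 to 0.34 between hosts in sorted cells, -0.12 to 0.59 in bulk, -0.26 to 0.30 in IL33KO hosts and -0.15 to 0.17 in WT hosts. Between bulk hosts 4 of 5 pairs were positive (0.16 to 0.59), and pair 5 (0.59) correlated best with its own number. So did pairs 2, 3 and 5 between hosts in sorted cells (0.19, 0.27 and 0.34). In sorted against bulk this held for pair 3 in IL33KO hosts (0.30) and pair 4 in WT hosts (0.17). In no comparison did it hold for every library. With the replicate block 14 mitosis genes were lower in WT hosts, with Aurka, Bub1, Bub1b and Ube2c joining. There 4 replication genes were higher, with Mcm3 joining. In IL33KO hosts 16 mitosis genes were lower, with Ccnb2 joining, and 1 replication gene, Mcm5, was higher, against 0 without the block. Of all genes, the block fit called 6149 higher and 6211 lower in WT hosts, and 5720 and 5754 in IL33KO hosts.

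Replication minus mitosis became 1.06 in sorted IL33KO, 1.04 in sorted WT, 0.45 in bulk IL33KO and 0.44 in bulk WT with Top2a, Ccna2 and Mki67 left out, and 0.33, 0.31, -0.32 and -0.37 with the E2F factors and cyclins E counted as replication genes, so its sign in bulk depends on the class while sorted stayed above bulk. With single libraries left out it ran from 0.77 to 0.85 in sorted IL33KO, 0.78 to 0.82 in sorted WT, 0.21 to 0.23 in bulk IL33KO and 0.17 to 0.24 in bulk WT. In WT hosts 2 to 5 replication genes were then higher and 0 to 2 lower, and 1 to 2 G1 to S genes higher. In IL33KO hosts 0 to 1 replication and 0 to 1 G1 to S genes were higher. Calls over all genes ran from 5835 to 6460 higher and from 5954 to 6324 lower in WT hosts. In IL33KO hosts 5416 to 5927 of all genes were called higher. Among single values between hosts, Ccnd1 ran from -0.020 to 0.12 in sorted cells and from -0.079 to 0.020 in bulk, its interaction from -0.029 to 0.13, and Mki67 from -0.088 to 0.049 in bulk. Depth did not limit these genes, whose lowest count was 144.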
